A study of Homo sapiens with 30 samples.

Results

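The proteasome subunit genes were taken as all genes whose single annotated symbol is PSMA, PSMB, PSMC or PSMD followed by a number, without pseudogenes or antisense genes. Of 39 such genes on the lists, 34 were measured by at least 1 probe set with a single symbol, out of 19775 genes, and they were covered by 61 of 54675 probe sets. PSMA6, PSMB11, PSMC5, PSMD7 and PSMD13 were not analysed here. By position in the complex the 34 genes comprise 13 of the core, 8 of the base and 6 of the lid. A further 4 are inducible or tissue-specific core genes (PSMA8, PSMB8, PSMB9 and PSMB10), and 3 are assembly chaperones that carry PSMD symbols (PSMD5, PSMD9 and PSMD10).

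The proteasome degrades proteins that carry ubiquitin chains. Its core is a barrel of alpha rings (PSMA) and beta rings (PSMB) in which PSMB5, PSMB6 and PSMB7 cut the substrate, and PSMB8, PSMB9 and PSMB10 replace them in the immunoproteasome. The regulatory particle on the end of the barrel has a base, with the ATPases PSMC1 to PSMC6 that unfold the substrate and the non-ATPases PSMD1, PSMD2 and PSMD4, and a lid, whose PSMD14 removes the ubiquitin chain. When proteasome activity falls short of demand, the transcription factor NFE2L1 is known to raise transcription of the subunit genes. MLN4924 (pevonedistat) acts upstream of the proteasome: it inhibits the NEDD8-activating enzyme and so the cullin-RING ligases, which attach ubiquitin to many proteins that the proteasome then degrades.

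A375, an established human melanoma cell line, was exposed either to 650 nM MLN4924 or to 0.065% DMSO, the vehicle, for 1, 2, 4, 8 or 24 h. Each of the 10 groups had 3 arrays, 30 in all, of the Affymetrix HG-U133 Plus 2.0 type, hybridized with biotin-labelled cRNA from total RNA. All groups shared this 1 cell line and a medium with fetal bovine serum, and every comparison with the drug is against the vehicle at the same time. The labels do not say that the 3 arrays of a group came from separate cultures, so the p-values reflect the spread among these arrays alone, and that spread may be technical. In such bulk samples, fewer cells of a type and less RNA per cell cannot be told apart.

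The arrays were of similar quality, with an ACTB 3' to 5' signal ratio from 1.144 to 1.744 and a median deposited signal from 32.6 to 44. The highest ACTB ratios were those of DMSO replicates 1 and 2 at 2 h (group mean 1.563), and no count of proteasome genes at 2 h moved without them. Of the melanocyte markers, SOX10 ran from 304.5 to 1126 and MITF from 222 to 382 in normalized signal, whereas PMEL (4.6 to 37.4), MLANA (4.6 to 33.3) and TYRP1 (8.7 to 29.5) were under the median gene (67.2) on all 30 arrays, and TYR reached at most 90.1. Of the markers of other cell types, 3 of 6 fibroblast, 4 of 6 blood and endothelial and 2 of 5 epithelial markers were under the median gene on all arrays, PTPRC (1.8 to 24.8), EPCAM (1.5 to 21) and COL3A1 (2.2 to 23.5) among them. COL1A1 (84.9 to 225), HBB (104 to 173) and KRT18 (1988 to 4824) were above it on all arrays, and KRT14 reached 171. Of 8 melanocyte markers, 0 were higher and 3 lower with MLN4924 at 24 h, S100B among them at a log2 change of -3.49, beside 0 and 3 of 6 fibroblast, 1 and 1 of 5 epithelial and 0 of 6 blood and endothelial markers. Of all genes 15.9% were called higher and 18.1% lower. Summed over the markers of a list, the 24 h arrays ran from 2424 to 2702 with DMSO and from 1016 to 1099 with MLN4924 for melanocytes, from 399 to 452 and 266.5 to 308 for fibroblasts, from 305.5 to 342 and 237 to 324 for blood and endothelium, and from 2139 to 2249.5 and 4655 to 4929 for epithelium. Their part in the results below was not tested. All 34 proteasome genes but PSMA8, a testis-specific alpha subunit with normalized signals from 3.2 to 23.8 over the 30 arrays, lay above the median gene.

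The promoters of 5 genes are shown because these had the largest differences at 24 h in either direction: PSMD3 and PSMC3, higher with the drug, and PSMD10, PSMB9 and PSMC6, lower with it. Each sequence runs 5' to 3' on the gene's strand from 250 bases before the start to 50 bases after it, from RefSeq on build GRCh38.p14. Capitals mark the 9-letter core of the antioxidant response element, TGACNNNGC, which NFE2L1 and NRF2 are known to recognise, and the CCAAT box, each on either strand. PSMD3 is on the plus strand at chr17:39980557-39980856, PSMC3 on the minus strand at chr11:47426390-47426689, PSMD10 on the minus strand at chrX:108091493-108091792, PSMB9 on the plus strand at chr6:32853942-32854241 and PSMC6 on the plus strand at chr14:52706950-52707249.
PSMD3: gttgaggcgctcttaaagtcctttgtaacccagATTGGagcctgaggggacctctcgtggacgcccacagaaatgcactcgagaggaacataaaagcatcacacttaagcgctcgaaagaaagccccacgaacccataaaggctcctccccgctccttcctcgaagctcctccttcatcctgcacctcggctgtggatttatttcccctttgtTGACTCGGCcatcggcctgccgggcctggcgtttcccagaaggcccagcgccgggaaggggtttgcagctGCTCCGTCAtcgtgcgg
PSMC3: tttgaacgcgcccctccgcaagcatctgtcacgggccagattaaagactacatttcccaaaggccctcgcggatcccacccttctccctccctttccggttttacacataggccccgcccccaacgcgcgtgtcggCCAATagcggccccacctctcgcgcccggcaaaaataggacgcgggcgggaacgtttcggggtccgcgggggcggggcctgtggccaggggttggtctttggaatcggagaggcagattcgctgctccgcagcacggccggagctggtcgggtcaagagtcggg
PSMD10: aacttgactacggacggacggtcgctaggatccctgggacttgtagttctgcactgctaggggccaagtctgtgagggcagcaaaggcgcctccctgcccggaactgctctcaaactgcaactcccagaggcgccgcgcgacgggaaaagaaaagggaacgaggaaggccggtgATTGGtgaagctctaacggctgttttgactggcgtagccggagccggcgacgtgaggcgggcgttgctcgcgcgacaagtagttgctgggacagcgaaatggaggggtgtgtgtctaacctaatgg
PSMB9: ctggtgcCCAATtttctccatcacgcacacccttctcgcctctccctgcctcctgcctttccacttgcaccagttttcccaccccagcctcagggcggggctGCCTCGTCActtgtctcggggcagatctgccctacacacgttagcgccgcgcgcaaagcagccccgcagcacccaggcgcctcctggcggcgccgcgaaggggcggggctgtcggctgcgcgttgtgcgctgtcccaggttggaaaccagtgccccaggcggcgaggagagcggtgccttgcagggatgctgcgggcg
PSMC6: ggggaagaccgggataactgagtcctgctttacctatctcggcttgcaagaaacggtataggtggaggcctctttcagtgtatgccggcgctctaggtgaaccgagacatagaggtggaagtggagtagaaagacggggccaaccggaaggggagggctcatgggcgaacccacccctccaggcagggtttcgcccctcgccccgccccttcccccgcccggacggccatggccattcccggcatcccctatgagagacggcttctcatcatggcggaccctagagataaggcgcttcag

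The PSMD3 window held the response element core on its own strand 37 bases before the start and on the opposite strand 34 bases after it. PSMB9, which moved the other way, held it on the opposite strand 148 bases before the start, and PSMC3, PSMD10 and PSMC6 held none. PSMC3 had a CCAAT box 114 bases before the start, PSMD10 76 (opposite strand), PSMD3 217 (opposite strand) and PSMB9 243. Among all members, 29 of 34 had a promoter entry, with 34 promoters in all. The core element was present in 26.5% of these promoters, in 9 genes (PSMA4, PSMB3, PSMB9, PSMC4, PSMD1, PSMD3, PSMD5, PSMD9 and PSMD12), against 13.3% of 35116 promoters of the same length. CCAAT was present in 44.1%, in 15 genes, against 34.6% of all promoters. The letters can occur within other motifs, and a match is a description of the sequence, not of binding.

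At 24 h some proteasome genes were higher with the drug and fewer were lower. PSMD3 and PSMC3 were 1.80-fold and 1.69-fold higher with MLN4924 than with DMSO, while PSMD10 and PSMB9 were at 0.615 and 0.635 of the DMSO level. In limma fits over all 19775 genes with Benjamini-Hochberg adjustment, 17 of the 34 genes passed an adjusted p of 0.05, 11 of them higher and 6 lower. Of all genes 34% passed, 15.9% higher and 18.1% lower, so the share of members called lower was close to that of all genes. Their median log2 change was 0.12 with 25 of 34 above zero, against 0.0027 for all genes. The groups did not overlap for 21 members, with the MLN4924 arrays all above for 16 and all below for 5. Of all genes 44.6% did not overlap, 21.6% above and 23% below. Higher members were found in every class except the inducible core: 3 of 13 core, 3 of 8 base, 4 of 6 lid and 1 of 3 chaperone genes, beside 2, 1, 1 and 1 lower.

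**Figure D1:**
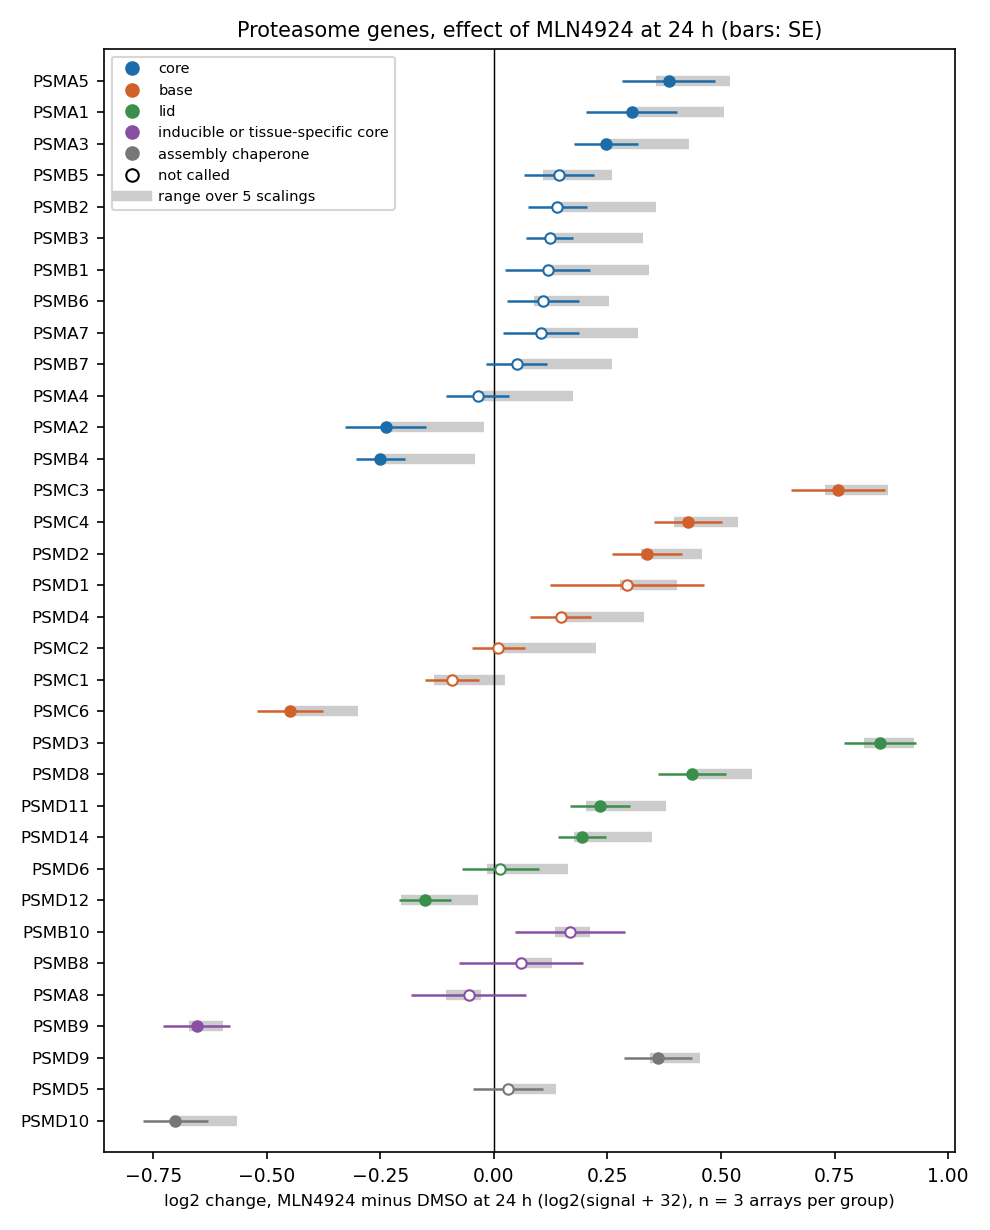
Log2 change of each of the 34 proteasome genes at 24 h, MLN4924 minus DMSO, with 3 arrays per group. Points are the estimates with their SE, filled where the adjusted p was under 0.05, colours are the classes, and grey bars span 5 ways of scaling the arrays. PSMD3 lies furthest to the right at 0.85 and PSMD10 furthest to the left at -0.70.

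The 5 core genes that passed were not those that cut the substrate. PSMA5, an alpha ring subunit, read 1874, 1881 and 1866 on the DMSO arrays at 24 h and 2254, 2481 and 2648 with MLN4924. All 3 drug arrays were above all 3 DMSO arrays, a log2 change of 0.38 ± 0.10 (SE, n = 3 per group, adjusted p = 0.004). PSMA1 read 3923, 4084 and 3487 with DMSO and 4581, 4882 and 4716 with the drug (0.30 ± 0.10, adjusted p = 0.0193). Its groups did not overlap either, but the call was lost without DMSO replicate 3 (0.24, adjusted p = 0.112) or without MLN4924 replicate 2 (0.28, adjusted p = 0.065). PSMA3 read 3435, 3406 and 3442 with DMSO against 4204, 4072 and 3948 (0.25 ± 0.07, adjusted p = 0.0066), again without overlap. Averaging all probe sets of a gene ended both calls, at 0.26 for PSMA5 (adjusted p = 0.0638) and -0.03 for PSMA3 (adjusted p = 0.851). The probe sets that averaging added were dim. For PSMA5 they read 35.1, 29.5 and 41.9 with DMSO at 24 h and 42.8, 54.3 and 30.8 with the drug. For PSMA3 they read 40.4, 41.4 and 35.1 against 28.5, 29.8 and 15.3, and 52.6, 79.8 and 41.3 against 55.4, 66 and 47.2.

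PSMB4 and PSMA2 were the core genes that were lower. PSMB4, a beta ring subunit without proteolytic activity, read 6893, 6597 and 6698 with DMSO and 5760, 5680.2 and 5521 with MLN4924 (-0.25 ± 0.05, adjusted p = 0.000561). PSMA2, of the alpha ring, read 4316, 4198 and 3655 against 3538, 3208 and 3542 (-0.24 ± 0.09, adjusted p = 0.0419). The drug arrays of both genes lay below the DMSO arrays, but both calls depended on the scaling of the arrays. Under median centring the changes were -0.044 (adjusted p = 0.85) and -0.022 (adjusted p = 0.894), and the PSMA2 call was also lost in 5 of 6 fits that left out 1 array, all except the one without DMSO replicate 3. The PSMB4 call was also lost without _x_at and _s_at probe sets (-0.095, adjusted p = 0.234). That fit read a second bright probe set, at 5518, 5411 and 5930 with DMSO against 5099, 5377 and 5297 with MLN4924.

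The catalytic subunits did not pass at 24 h. PSMB5, which carries the chymotrypsin-like activity, read 1732, 1566.5 and 1691 with DMSO and 1748, 1813 and 1959 with MLN4924 (0.14 ± 0.08, adjusted p = 0.177). PSMB6, the caspase-like subunit, read 2483, 2227 and 2375 against 2545.5, 2467 and 2627 (0.11 ± 0.08, adjusted p = 0.35). PSMB7, the trypsin-like subunit, read 4279.7, 3948 and 4287 against 4254, 4551 and 4157 (0.05 ± 0.07, adjusted p = 0.653). The 3 drug arrays were above the 3 DMSO arrays for PSMB5, and the groups overlapped for PSMB6 and PSMB7.

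Of the inducible subunits only PSMB9 passed at 24 h. PSMB9, the interferon-inducible partner of PSMB6, read 387, 384 and 389 with DMSO at 24 h and 227, 224 and 252 with MLN4924, with no overlap (-0.65 ± 0.07, adjusted p = 1.05e-07). PSMB8, the partner of PSMB5, read 382, 303 and 384 against 372, 366 and 373, with overlapping groups (0.06 ± 0.14, adjusted p = 0.813). PSMB10, the partner of PSMB7, read 190.3, 190.5 and 189 against 184, 245 and 228, also with overlap (0.17 ± 0.12, adjusted p = 0.344). A test of the difference between these genes was not made.

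Among the genes of the base, PSMC3 and PSMC6 stood at opposite ends although both encode ATPases of the same ring. PSMC3 read 1052, 1081 and 1193 with DMSO at 24 h and 1914, 1924 and 1844 with MLN4924 (0.76 ± 0.10, adjusted p = 1.66e-06). PSMC6 read 1505, 1501 and 1475 with DMSO and 1119, 1195.5 and 956 with the drug (-0.45 ± 0.07, adjusted p = 1.75e-05). Neither gene's groups overlapped, and both kept their call in every alternative fit that was run. The only probe set of PSMC3 may also bind related transcripts, as its name marks. The fit without such probe sets could therefore not be run for PSMC3. PSMC4, another ATPase, read 1056, 1083 and 1185 against 1425, 1461 and 1619 (0.43 ± 0.07, adjusted p = 5.56e-05), also without overlap.

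PSMD2, the scaffold of the base that binds ubiquitin shuttle proteins, read 912, 984 and 1057 with DMSO against 1219.6, 1265 and 1266 with MLN4924 (0.34 ± 0.08, adjusted p = 0.00103), with every drug array above. PSMD4, a ubiquitin receptor, read 3125, 3230.2 and 3234 against 3398, 3568 and 3665. Its drug arrays were all above, but the change of 0.15 ± 0.07 did not pass (adjusted p = 0.0994). PSMD4 passed under 3 other scalings, at 0.25 with the signals as deposited (adjusted p = 0.049), 0.33 with median centring (adjusted p = 0.0315) and 0.33 with the 75th percentile (adjusted p = 0.0235). PSMC1 and PSMC2, ATPases, and PSMD1, the other scaffold, had changes of -0.09, 0.01 and 0.29 and overlapping groups.

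The lid held the gene with the largest difference. PSMD3 read 445, 438.5 and 473 with DMSO at 24 h and 813, 788 and 926 with MLN4924 (0.85 ± 0.08, adjusted p = 4.42e-09). PSMD8 read 1314, 1209.5 and 1338 against 1712, 1726 and 1816 (0.44 ± 0.07, adjusted p = 4.12e-05). For both lid genes every drug array was above every DMSO array, by more than the spread within either group.

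PSMD14, the deubiquitinase, read 2231, 2182 and 2131.5 with DMSO against 2403, 2532 and 2563 (0.19 ± 0.05, adjusted p = 0.00545). PSMD11, a lid scaffold subunit, read 2254, 2010.2 and 2289.9 against 2452, 2475 and 2795 (0.23 ± 0.07, adjusted p = 0.00657). Neither overlapped, but with only the 6 arrays of 24 h in the fit the adjusted p was 0.0611 for PSMD14 and 0.0917 for PSMD11, and the PSMD11 call was lost without DMSO replicate 2 (0.18, adjusted p = 0.0624) or MLN4924 replicate 3 (0.17, adjusted p = 0.0633). PSMD12 read 2379, 2229.8 and 1999 against 2032, 1999 and 1893, with overlap (-0.15 ± 0.06, adjusted p = 0.0413). Its call was lost in 12 of 19 alternatives, among them the fits without DMSO replicate 1 (-0.10, adjusted p = 0.265) or replicate 2 (-0.14, adjusted p = 0.111) and without MLN4924 replicate 2 (-0.16, adjusted p = 0.0646) or replicate 3 (-0.12, adjusted p = 0.166). PSMD6 was at 0.01 ± 0.08 with overlapping groups.

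The base assembly chaperones moved in different directions. PSMD10, also known as gankyrin, which binds the ATPase PSMC4 during assembly, read 1553, 1499 and 1708 with DMSO and 936, 1008 and 943 with MLN4924 (-0.70 ± 0.07, adjusted p = 1.7e-08). PSMD9 read 687, 651 and 678 with DMSO and 811.5, 876.5 and 932 with the drug (0.36 ± 0.07, adjusted p = 0.000379). PSMD5 read 635, 594 and 693 against 585, 648 and 737 (0.03 ± 0.08, adjusted p = 0.829). The groups of PSMD10 and PSMD9 were separate, and those of PSMD5 overlapped. The PSMD10 call rests on a probe set that may also bind related transcripts, as its name marks, and without such probe sets the change was -0.25 (adjusted p = 0.0915).

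**Figure D2:**
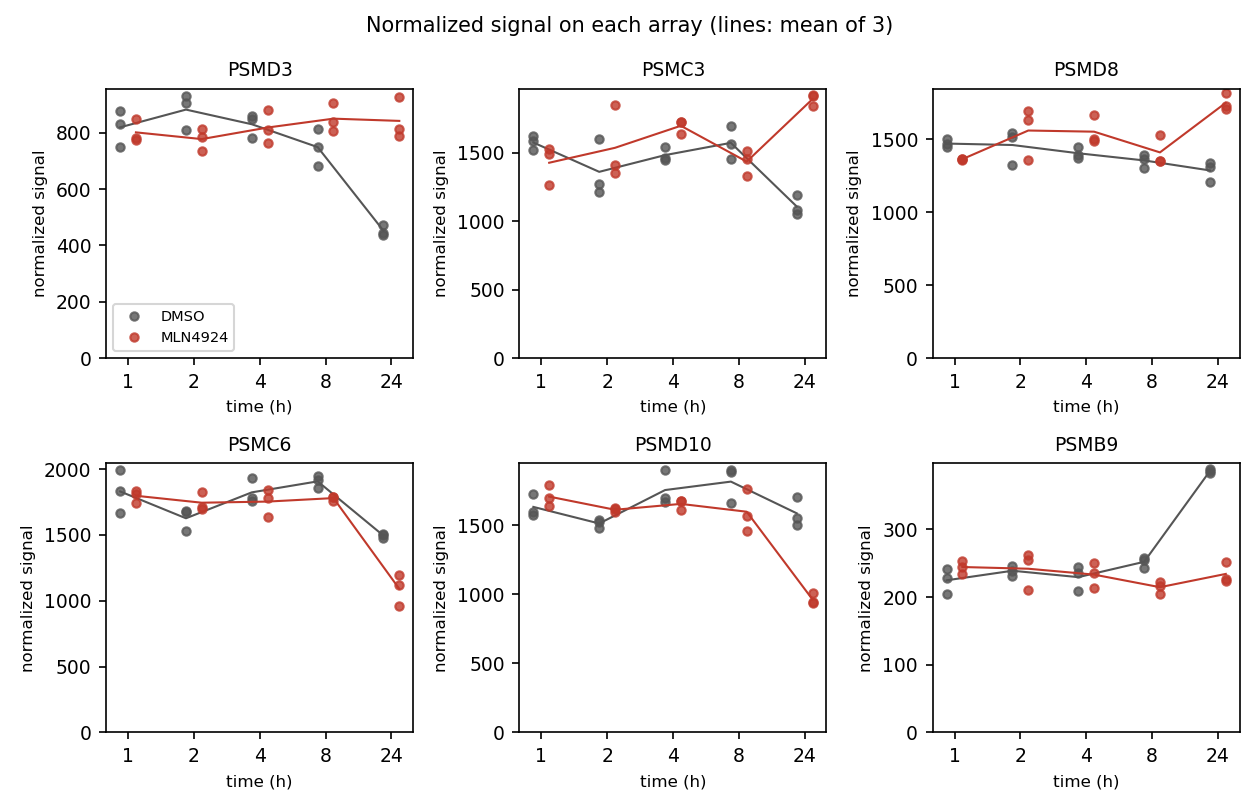
Normalized signal (linear axis from 0) of PSMD3, PSMC3, PSMD8, PSMC6, PSMD10 and PSMB9 on each of the 30 arrays by time in h, grey for DMSO and red for MLN4924, with lines through the group means of 3 arrays. At 24 h PSMD3 is lower in DMSO while the MLN4924 arrays stay near their earlier level, and PSMB9 is higher in DMSO while the MLN4924 arrays do not follow.

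Before 24 h few proteasome genes differed between the drug and the vehicle in the probe set used for each gene. None of the 34 passed at 1, 2 or 4 h, where 0.00506%, 0.551% and 3.39% of all genes passed in limma, and 0, 1 and 1 had an unadjusted p under 0.05. The member at 2 h was PSMD3 (-0.17 ± 0.08, adjusted p = 0.452), opposite in sign to its change at 24 h, and at 4 h PSMD6 (0.24 ± 0.08, adjusted p = 0.149), both named after their values were seen. At 8 h 2 of 34 passed, beside 15.2% of all genes, and 8 had an unadjusted p under 0.05. A second PSMD11 probe set, outside these counts and named after its values were seen, was separate and higher earlier. It read 219, 286 and 219 with DMSO against 298, 307 and 323.5 with MLN4924 at 2 h. At 4 h it read 195, 207.5 and 189 against 322, 299 and 416, and at 8 h 194, 235.5 and 205 against 507, 546 and 428. The PSMD11 probe set used was at 0.13 at 8 h and did not pass.

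PSMD14 read 2576, 2594 and 2674 with DMSO at 8 h and 3007, 3149 and 3022 with MLN4924. It was separate and higher (0.22 ± 0.05, adjusted p = 0.00427), as it was at 24 h, but with only the 6 arrays of 8 h in the fit its adjusted p was 0.104. PSMB4 read 7122, 6183 and 7070 with DMSO and 5943, 6171 and 5929.7 with the drug. It was lower, at -0.17 ± 0.05 (adjusted p = 0.0304), and by arrays just separate. Its call was lost without DMSO replicate 1 (-0.14, adjusted p = 0.152), DMSO replicate 3 (-0.14, adjusted p = 0.138), MLN4924 replicate 1 (-0.16, adjusted p = 0.0888) or MLN4924 replicate 3 (-0.16, adjusted p = 0.0922), and its sign turned with each array centred on its median (0.13, adjusted p = 0.549).

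An F test over the 5 times called 12 members, beside 32.6% of all genes. The drug effect itself changed between 8 and 24 h for 8 members, 4 upward and 4 downward, where 19.5% of all genes did. The 4 upward were PSMC3 (0.89 ± 0.145), PSMD3 (0.67 ± 0.11), PSMC4 (0.39 ± 0.11) and PSMD8 (0.38 ± 0.11). The 4 downward were PSMD10 (-0.52 ± 0.10), PSMB9 (-0.45 ± 0.105), PSMC6 (-0.35 ± 0.10) and PSMD12 (-0.30 ± 0.08). PSMC6 lost this call without MLN4924 replicate 3 at 24 h (-0.26, adjusted p = 0.0586). From 1 to 2, 2 to 4 and 4 to 8 h no member passed in limma, with 1, 0 and 3 at an unadjusted p under 0.05 and 0.147%, 0.491% and 1.57% of all genes called.

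Levels in the vehicle also moved with time. From 1 to 24 h in DMSO, 14 of the 34 genes fell and 2 rose, where 18.4% of all genes changed and 8.47% fell. The falls included 6 of 8 base and 4 of 6 lid genes, but 3 of 13 core genes and 1 of 3 chaperones. Median log2 changes were -0.36 for the base, -0.36 for the lid and -0.14 for the core, against -0.00323 for all genes. In MLN4924 over the same times 8 members fell and 3 rose (29.8% of all genes changed), with medians of -0.02 for the base, -0.14 for the lid and -0.000859 for the core. This comparison was added after the data were seen. These comparisons share the DMSO arrays at 24 h, or the MLN4924 arrays at 24 h, with the drug comparison at that time, so the values are given side by side and no relation between them was tested.

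PSMD3 read 876, 751 and 831 in DMSO at 1 h, above all 3 values at 24 h (-0.81 ± 0.08 over time, adjusted p = 7.43e-08). In MLN4924 it read 781, 850.4 and 773 at 1 h, overlapping the values at 24 h (0.07 ± 0.08, adjusted p = 0.622). For PSMC4 the changes with time were -0.47 ± 0.07 in DMSO (adjusted p = 5.38e-05) and 0.05 ± 0.07 in MLN4924 (adjusted p = 0.686). For PSMD2 they were -0.45 ± 0.08 (adjusted p = 0.000114) and -0.06 ± 0.08 (adjusted p = 0.67). These 3 genes thus fell in the vehicle and did not pass in the drug.

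PSMC3 and PSMD8 passed upward in the drug. PSMC3 read 1623, 1521 and 1584 in DMSO and 1529.9, 1263 and 1492 in MLN4924 at 1 h. Its change over time was -0.50 ± 0.10 in DMSO (adjusted p = 0.000994) and 0.40 ± 0.10 in MLN4924 (adjusted p = 0.00337). PSMD8 changed by -0.19 ± 0.07 in DMSO (adjusted p = 0.0842) and by 0.35 ± 0.07 in MLN4924 (adjusted p = 0.000589). PSMB8 rose with both agents, by 0.53 ± 0.14 (adjusted p = 0.00784) and 0.40 ± 0.14 (adjusted p = 0.0281). The PSMB8 rise in MLN4924 was lost without MLN4924 replicate 3 at 1 h (0.25, adjusted p = 0.218) and without each of MLN4924 replicates 1, 2 and 3 at 24 h (adjusted p = 0.0642, 0.0571 and 0.0669).

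PSMB9 rose in the vehicle. It read 241, 229 and 204 in DMSO at 1 h and changed by 0.71 ± 0.07 to 24 h (adjusted p = 2.05e-07). In MLN4924 it read 245, 254 and 234.5 at 1 h and changed by -0.06 ± 0.07 (adjusted p = 0.668). PSMD10 changed by -0.04 ± 0.07 in DMSO (adjusted p = 0.8) and by -0.81 ± 0.07 in MLN4924 (adjusted p = 2.22e-09), the latter -0.079 (adjusted p = 0.703) from its other probe set. PSMC6 fell in both, by 0.28 in DMSO (adjusted p = 0.00625) and by 0.71 in MLN4924 (adjusted p = 2.27e-08), although without DMSO replicate 2 at 1 h its fall in DMSO was at an adjusted p of 0.0505.

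**Figure D3:**
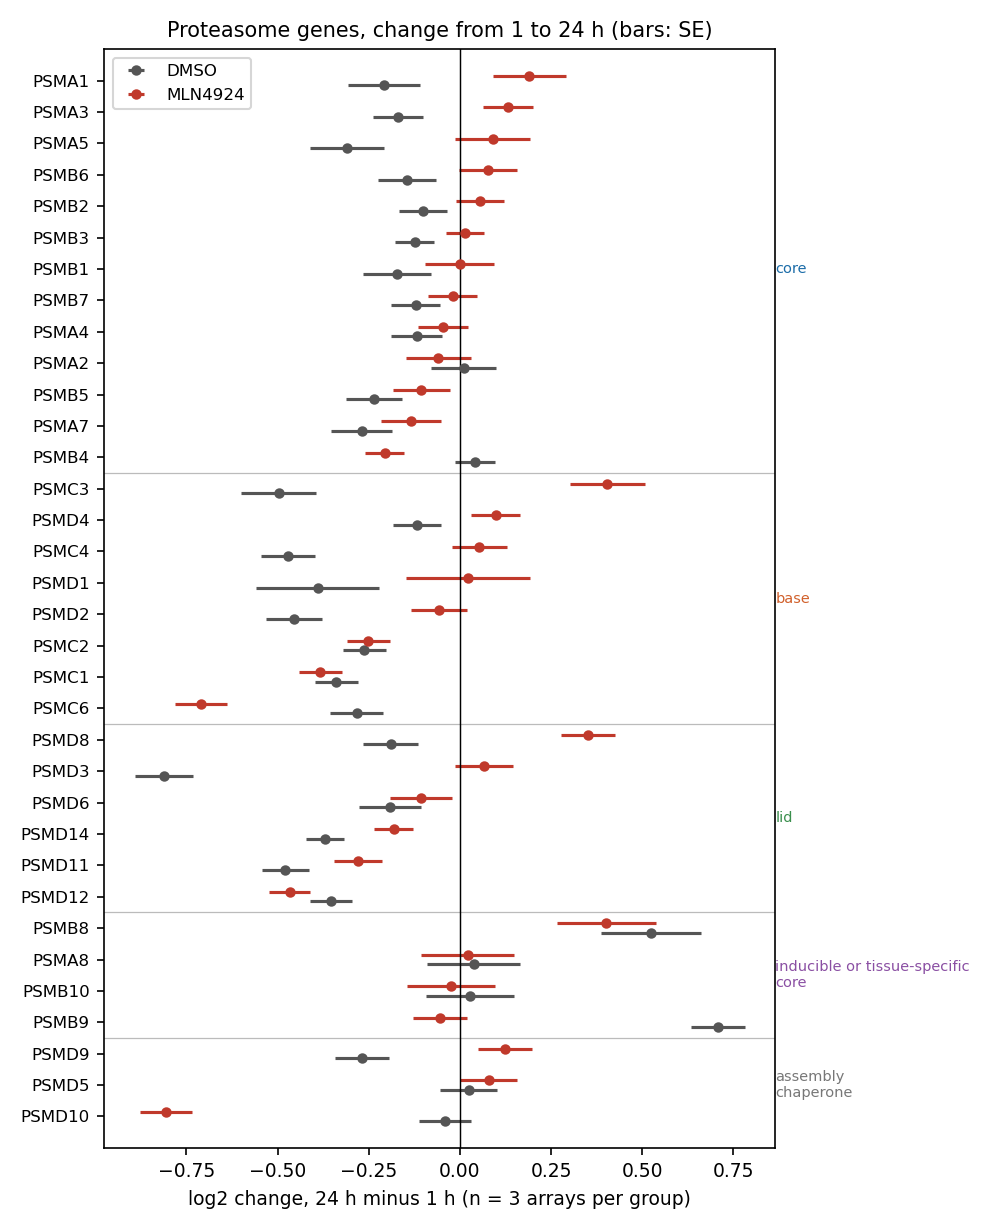
Log2 change from 1 to 24 h of the 34 proteasome genes in DMSO (grey) and in MLN4924 (red), with SE, 3 arrays per group, ordered by class and by the change in MLN4924. PSMD3 sits at -0.81 in DMSO and 0.07 in MLN4924, PSMB9 at 0.71 and -0.06, and PSMD10 at -0.04 and -0.81.

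The other members that fell in DMSO were PSMC1, PSMC2, PSMD11, PSMD12 and PSMD14, which also passed downward in MLN4924, and PSMA5, PSMA7, PSMB5 and PSMD9, which did not. The 2 ATPase genes PSMC1 and PSMC2 changed by -0.34 and -0.26 in DMSO and by -0.38 and -0.25 in MLN4924. The falls of PSMC2 and PSMD11 in MLN4924 depended on the probe set. With probe sets averaged they passed upward in limma (0.18, adjusted p = 0.0475, and 0.35, adjusted p = 0.0018). Without probe sets that may also bind related transcripts they did so too (0.45, adjusted p = 9.72e-05, and 0.99, adjusted p = 1.93e-05). PSMA5, PSMA7 and PSMB5 had adjusted p-values of 0.0348, 0.024 and 0.0342 in DMSO. PSMA5 lost its call without any one of the 6 arrays other than DMSO replicate 2 at 1 h (adjusted p from 0.0767 to 0.212). PSMA7 lost it without DMSO replicate 1 or 3 at either time (0.0561 to 0.128), and PSMB5 without DMSO replicate 1 or 3 at 1 h or replicate 2 or 3 at 24 h (0.0623 to 0.151). PSMD9 (-0.27) lost its call in DMSO without DMSO replicate 1 at 1 h (adjusted p = 0.0783) or DMSO replicate 2 at 24 h (adjusted p = 0.0521). PSMD14 lost its call in MLN4924 without replicate 1 at 24 h (-0.16, adjusted p = 0.0558).

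The medians of the classes were compared array by array. The median log2 level of the 8 base genes was 10.37 ± 0.04 (SD, n = 3) in DMSO at 24 h and 10.65 ± 0.08 in MLN4924, and the arrays did not overlap. For the 13 core genes it was 11.99 ± 0.05 and 12.07 ± 0.03, with overlap by a narrow margin. For the 6 lid genes it was 11.08 ± 0.06 and 11.13 ± 0.01, also with overlap, although 4 of the 6 passed upward. The median level and the median of the genes' own changes differ for the lid. The median log2 change at 24 h was 0.12 for the core, 0.22 for the base and 0.21 for the lid. At 8 h the lid stood at 11.37 ± 0.02 in DMSO and 11.54 ± 0.00351 in MLN4924 without overlap, whereas core (12.11 and 12.13) and base (10.78 and 10.72) overlapped. The lid was also separate at 4 h, at 11.45 ± 0.02 and 11.53 ± 0.03, where core and base overlapped. Levels are not compared between classes, since probe sets differ in brightness, and no test of a class against another was made.

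**Figure D4:**
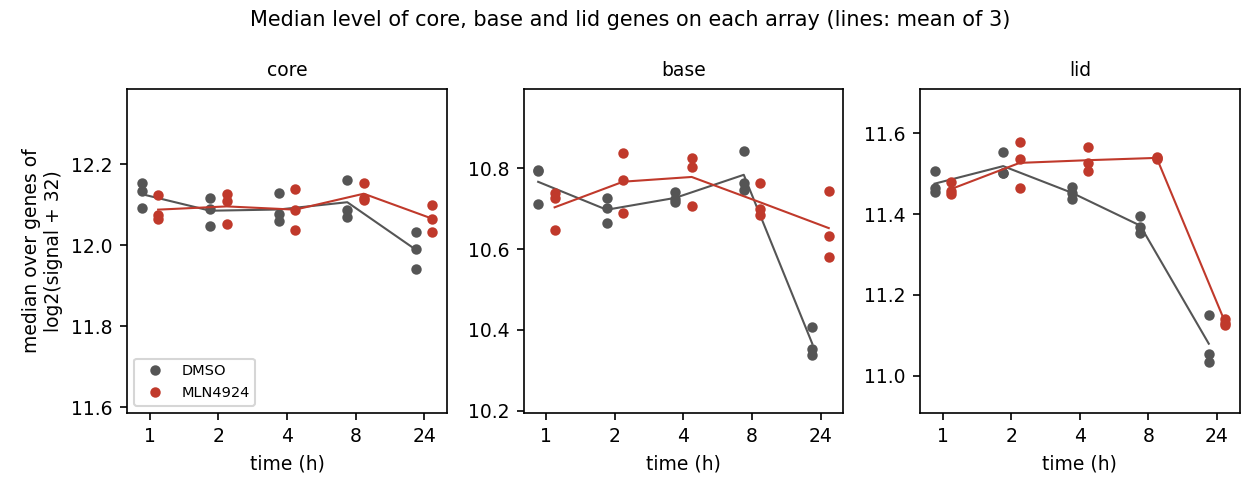
Median over the core (13), base (8) and lid (6) genes of log2(signal + 32) on each array, by time in h, grey for DMSO and red for MLN4924, with lines through the means of 3 arrays; the vertical axes do not start at 0. The base at 24 h (10.37 against 10.65) and the lid at 4 h (11.45 against 11.53) and 8 h (11.37 against 11.54) are separate by arrays.

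Of the 61 probe sets, 19 were called higher and 5 lower at 24 h in a limma fit over all 54675 probe sets, where 24.8% passed. No member had probe sets called in both directions, but the size, and for PSMA2, PSMA3, PSMA7, PSMB1, PSMB2, PSMD5 and PSMD12 the sign, depended on the probe set. For each gene the one with the highest mean was used above. PSMA7 was at 0.10 in the one used and lower in its other probe set, at -0.23 ± 0.08 (adjusted p = 0.0473). PSMD12 was at -0.15 in the one used (adjusted p = 0.0573 in this fit) and 0.14 ± 0.09 in the other (adjusted p = 0.353). A PSMA3 probe set not used was at -0.34 ± 0.17 (adjusted p = 0.17) beside 0.25. It was dim, at 40.4, 41.4 and 35.1 with DMSO at 24 h and 28.5, 29.8 and 15.3 with MLN4924. The median of all probe sets was 36.2. The second PSMD5 probe set was dimmer still, at 2.1, 7.2 and 1.3 against 2, 5 and 2.6. A second PSMD11 probe set read at most 213 on the 3 DMSO arrays and 487, 498 and 621 with MLN4924, a log2 change of 1.54 ± 0.155 (adjusted p = 2.7e-08) against 0.23 for the one used. Both were separate and higher than in DMSO.

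PSMC2 had a probe set at 177, 163.5 and 171 with DMSO and 344, 344 and 385 with MLN4924 (0.94 ± 0.08, adjusted p = 1.64e-09). A further one was called higher at 0.64 ± 0.18, while the one with the highest mean gave 0.01. PSMA2 had a second probe set at 412, 371 and 379.7 against 455, 453 and 455.5 (0.22 ± 0.06, adjusted p = 0.00916), opposite to the fall of 0.24 in the one used, which in this fit had an adjusted p of 0.0562. The second PSMD10 probe set changed by -0.25 ± 0.11 (adjusted p = 0.104), in the same direction but smaller. All 3 probe sets of PSMA1 (0.30 to 0.37) and both of PSMD9 (0.36 and 0.58) passed upward. Which transcript forms the probe sets of PSMD11, PSMC2 and PSMA2 read was not analysed here.

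The scaling of the arrays mattered more at 8 h than at 24 h. Besides quantile normalization, the signals were used as deposited, centred on each array's median, scaled to its 75th percentile, or normalized by cyclic loess. At 24 h the same 11 genes were higher under all 5 scalings (PSMA1, PSMA3, PSMA5, PSMC3, PSMC4, PSMD2, PSMD3, PSMD8, PSMD9, PSMD11 and PSMD14), and PSMB9, PSMC6 and PSMD10 were lower under all 5. PSMA2, PSMB4 and PSMD12 were lower under some, PSMB2, PSMB3 and PSMD4 higher under some, and PSMA4, PSMC1 and PSMD6 changed sign. At 8 h PSMD14 was higher under all 5, but the count ran from 1 gene with loess to 9 with median centring, all 9 higher, and 13 genes changed sign.

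The median change of the 34 genes at 8 h was 0.02 after quantile normalization, 0.01 with loess, 0.13 as deposited, 0.25 with median centring and 0.23 with the 75th percentile. At 4 h it was 0.02, 0.04, 0.14, 0.20 and 0.20, and at 24 h 0.12, 0.13, 0.21, 0.29 and 0.29. The lid median exceeded the core median at 8 h by 0.13, 0.13, 0.10, 0.10 and 0.10 in the same order. The median of all genes stayed between -0.03 and 0.08 in these fits. The 99th percentile of the deposited signal was 3670 ± 211 in DMSO and 4054 ± 221 in MLN4924 at 8 h (SD, n = 3), and 3698 ± 171 and 4106 ± 93.8 at 24 h. Its part in the differences between scalings was not tested. Centring on the median also moved the share of higher calls among all genes, from 55.1% to 77.7% at 8 h and from 53.8% to 67.7% at 4 h, and the 75th percentile moved it to 69.7% and 65.5%. The DMSO changes from 1 to 24 h were less affected: PSMB8 and PSMB9 rose and 11 genes fell under all 5 scalings, the latter being PSMC1, PSMC2, PSMC3, PSMC4, PSMC6, PSMD2, PSMD3, PSMD9, PSMD11, PSMD12 and PSMD14. Under all 5 scalings in MLN4924, PSMB8, PSMC3 and PSMD8 rose and PSMC1, PSMC6, PSMD10 and PSMD12 fell, while PSMB4, PSMC2, PSMD11 and PSMD14 fell under some.

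**Figure D5:**
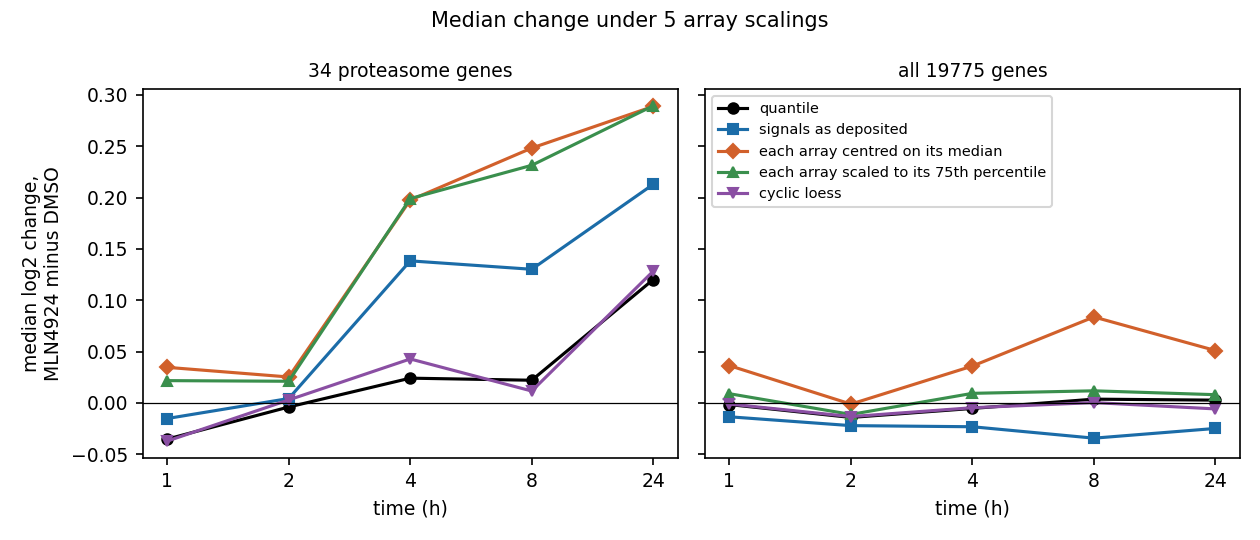
Median log2 change, MLN4924 minus DMSO, at each time in h for the 34 proteasome genes (left) and all 19775 genes (right) under 5 scalings of the arrays. At 8 h the proteasome median runs from 0.01 with cyclic loess to 0.25 with median centring, and at 24 h all 5 scalings lie between 0.12 and 0.29.

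Other genes of the proteasome and of its regulation were looked at beside the subunits. The counts below stand beside 15.9% of all genes called higher and 18.1% called lower at 24 h. ADRM1, the ubiquitin receptor that docks on PSMD1 but has no PSM symbol, read 766, 777 and 773 with DMSO at 24 h and 1967, 1800.4 and 2163 with MLN4924 (1.32 ± 0.11, adjusted p = 1.02e-09). It was the 1 of 10 associated genes that was higher, and RAD23B and UBQLN2, shuttle proteins that bring ubiquitinated substrates, were lower (-0.52 and -0.69). UCHL5 and USP14, deubiquitinases that bind the base, were at -0.00188 and 0.0085 at 24 h. USP14 had been higher at 8 h (0.24 ± 0.06, adjusted p = 0.0102).

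PSMF1, an inhibitor of the core, was the 1 of 4 activator and inhibitor genes that passed, higher at 763, 862 and 719 against 481, 479 and 490 (0.65 ± 0.10, adjusted p = 5.5e-06). PSME1 and PSME4, which encode activators, were at 0.03 and -0.11. Of 6 other assembly factors 2 were higher and 1 lower: AKIRIN2, which carries proteasomes into the nucleus (0.77 ± 0.12), PSMG1 (0.28 ± 0.10) and PSMG2 (-0.22 ± 0.07), the latter partners in one core chaperone. POMP, which matures the core, was at -0.01 ± 0.05.

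On the list for the NFE2L1 pathway, which also held the proteasome-binding ZFAND2A, 3 of 7 genes were higher and 1 lower. ZFAND2A, a stress-induced proteasome-binding protein, was higher by 1.31 ± 0.10 (adjusted p = 1.12e-10), UFD1 by 0.33 ± 0.08 and NFE2L1 itself by 0.18 ± 0.07 (adjusted p = 0.0413). VCP, the ATPase that extracts NFE2L1 from the membrane, was lower (-0.40 ± 0.10). UBB, 1 of 2 ubiquitin genes measured, was lower at -0.18 ± 0.05, and had been lower from 2 h on.

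NRF2 (NFE2L2), a relative of NFE2L1, is degraded through a cullin-RING ligase. All 9 NRF2 targets were called higher at 4, 8 and 24 h, where 0, 1 and 11 of the 34 subunit genes were. Of all 19775 genes, 361, 1655 and 3137 were called higher at these times, the last being 15.9%. In either direction 3.39%, 15.2% and 34% of all genes passed. HMOX1 read 126, 138 and 142 with DMSO and 2285, 2176 and 2460 with MLN4924 at 8 h (3.805 ± 0.10), and 90.1, 75.9 and 72.8 against 269, 241 and 289 at 24 h (1.42 ± 0.10). NFE2L2 mRNA was at 0.0082 ± 0.07 at 24 h. Of 11 antigen processing genes that work with PSMB8, PSMB9 and PSMB10, TAP1 and TAP2, the peptide transporter, were higher (0.63 and 0.62) and 5 were lower, among them the loading factor TAPBP (-0.97 ± 0.12) and the peptidase ERAP1 (-0.51 ± 0.13). TAP1 and PSMB9 lie next to each other in the genome, and at 24 h TAP1 was higher and PSMB9 lower.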

How the data were processed

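RNA of A375 cells was measured on 30 HG-U133 Plus 2.0 arrays, 3 in each of 10 groups. The deposited values are linear intensity values per probe set, made by the authors with Affymetrix Expression Console (per the submitters' processing notes), for which no version or summary method is given in the sources used here. The mean of each array trimmed by 2% at each end was 150.02, so the arrays had been scaled to a common mean. The number of arrays limits the precision.

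The signals were quantile normalized, and log2(signal + 32) entered a linear model (limma 3.58.1, R 4.3.3) that estimated a mean for each group from all 30 arrays together and left 20 degrees of freedom for the residual. Fold changes are on this scale, which understates changes of dim genes, and printed signals are normalized signals. For each of 19775 genes with a single symbol in GEO's platform annotation, the probe set with the highest mean was used. Of the probe sets, 41097 had 1 symbol, 1801 several and 11777 none. Tests were two-sided with Benjamini-Hochberg adjustment over all genes within each contrast, called at an adjusted p of 0.05. Errors of changes are SE. Promoters came from RefSeq (GRCh38.p14) and were searched on both strands.

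All members were counted. Values on every array are given for up to 10 called members in each direction per drug comparison, the catalytic and inducible subunits, PSMD4, PSMD14 and the chaperones, and from other lists for up to 4 called genes and some regulators. The members and lists were chosen with earlier results of these data known. Other scalings, added constants, filters, probe set rules, variance models, a replicate block, covariates and leaving out single arrays were tried. In a simulation of the 24 h comparison on 19775 genes with 200 changed, 8.96% of changes of 0.25, 52.1% of 0.5 and 88.7% of 1 (log2) were called, with 6 false among 104 calls. In the data 34% of all genes passed at 24 h. Benjamini-Hochberg adjustment is stricter where few genes change, so these rates cannot be read as those of the data.

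Replicate numbers are shared by the groups. Deviations of same-numbered arrays from their group means correlated between -0.106 and 0.0728 over 15 pairs, so the numbers do not pair the arrays.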

Additional observations from a re-analysis of the deposited data

Results flagged for a closer look

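The drug effect (MLN4924 minus DMSO) changed between 8 and 24 h for 8 of the 34 proteasome genes, by limma's test of the difference itself with Benjamini-Hochberg adjustment. The same test called 19.5% of all genes. PSMC3 moved up by 0.89 on the log2 scale (adjusted p = 6.4e-05), PSMD3 by 0.67 (adjusted p = 8.03e-05), PSMC4 by 0.39 (adjusted p = 0.00894) and PSMD8 by 0.38 (adjusted p = 0.0107). PSMD10 moved by -0.52 (adjusted p = 0.000435), PSMB9 by -0.45 (adjusted p = 0.00271), PSMC6 by -0.35 (adjusted p = 0.0147) and PSMD12 by -0.30 (adjusted p = 0.00862). Under median centring, the changes of PSMC4 and PSMD8 no longer passed (adjusted p = 0.201 and 0.156), and with the 75th percentile they were at 0.142 and 0.114. PSMC4 was also at 0.0571 with signals as deposited. Averaging a gene's probe sets ended the changes of PSMD10 (-0.17, adjusted p = 0.299) and PSMD12 (-0.15, adjusted p = 0.275), without _x_at and _s_at probe sets the PSMD10 change turned to 0.19 (adjusted p = 0.527), and without MLN4924 replicate 3 at 24 h PSMC6 was at -0.26 (adjusted p = 0.0586). Groups of 3 arrays are too small for a test of single arrays that stand apart.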

How the results depend on the processing

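At 24 h, 12 to 18 of the 34 genes passed over all alternatives, and PSMD3, PSMC3, PSMD8, PSMC4, PSMD2, PSMD9, PSMB9 and PSMC6 kept their direction and call in each one run. PSMC3 and PSMD9 have only _s_at probe sets, so the fit without _x_at and _s_at probe sets could not be run for them. Calls at 8 h numbered 7 with signals as deposited, 9 with each array centred on its median, 8 with the 75th percentile, 1 with cyclic loess, 5 without genes of low signal, 1 with the ACTB ratio as covariate and 0 with only the 6 arrays compared, and 1 to 2 when single arrays were left out (1 without DMSO replicate 3). At 4 h 1 gene passed with probe sets averaged per gene and 1 without _x_at and _s_at probe sets, a rule that leaves 26 members. Over time in MLN4924, 7 passed with median centring and 5 without those probe sets. The replicate block gave 2 calls at 8 h, 17 at 24 h, 16 over time in DMSO, 11 in MLN4924, 8 for the change from 8 to 24 h and 13 by the F test, against 2, 17, 16, 11, 8 and 12 without it.

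Median changes are given for signals as deposited, median centring and the 75th percentile in turn. At 4 h they were 0.14, 0.20 and 0.20 for all members, 0.15, 0.21 and 0.21 for the core, 0.15, 0.21 and 0.21 for the base and 0.15, 0.21 and 0.21 for the lid. At 8 h they were 0.13, 0.25 and 0.23 for the members, 0.14, 0.26 and 0.25 for the core, 0.065, 0.18 and 0.17 for the base and 0.24, 0.36 and 0.34 for the lid. At 24 h they were 0.21, 0.29 and 0.29, then 0.24, 0.32 and 0.32, then 0.29, 0.37 and 0.37, and 0.29, 0.36 and 0.36. At 1 h median centring and the 75th percentile gave 0.035 and 0.022 for the members, 0.028 and 0.015 for the core, 0.011 and -0.00178 for the base and 0.036 and 0.023 for the lid. Averaged probe sets gave -0.017 for the core at 1 h, 0.069 for the lid at 2 h, 0.11 for the lid at 4 h, 0.066, 0.038 and 0.16 for core, base and lid at 8 h, and 0.032 for the core and 0.31 for the lid at 24 h. Without _x_at and _s_at probe sets they were -0.017 for the core at 1 h, -0.024 for the base and 0.14 for the lid at 4 h, 0.13, 0.035 and 0.18 at 8 h, and 0.34 for the base and 0.44 for the lid at 24 h.

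Leaving out single arrays moved the median at 1 h from -0.076 to -0.012 for the members, -0.087 to -0.012 for the core, -0.12 to -0.034 for the base and -0.058 to -0.0105 for the lid. At 2 h the core ran from -0.059 to 0.065 and the base from -0.0400 to 0.054, at 8 h the core from -0.034 to 0.059 and the lid from 0.11 to 0.15, and at 24 h the base from 0.14 to 0.27. The uncalled changes of PSMB8 (-0.043 to 0.11) and PSMD5 (-0.051 to 0.11) at 24 h crossed zero.

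Directions turned for PSMB4 at 8 h (0.015 as deposited, 0.13 median centred, 0.12 by the 75th percentile, 0.084 with averaged probe sets, 0.0059 without _x_at and _s_at probe sets) and for PSMA3 at 24 h with averaged probe sets (-0.033). Without _x_at and _s_at probe sets they turned for PSMA2 at 24 h (0.22) and for the PSMD10 change from 8 to 24 h (0.19). Over time in MLN4924, averaging or leaving out those probe sets turned PSMC2 (0.18 and 0.45) and PSMD11 (0.35 and 0.99), each passing upward. The cause was not tested, except that other probe sets of the gene are read under these last settings.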
